A study of Mus musculus with 16 samples.

Results

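The albumin gene family of the mouse liver was examined by following the chromatin contacts of the promoters of Alb, Afp, Afm and Gc on chromosome 5, which are 4 of the 37310 genes of the GENCODE vM1 annotation. Promoter Capture Hi-C (Promoter-CHi-C) crosslinks chromatin, cuts it with the restriction enzyme HindIII, ligates neighboring ends and captures the ligation products that carry a promoter. The livers came from wild type male C57BL/6 mice labelled as 8 week old, which the methods give as the age at which 2 weeks of housing with 12 h light and 12 h dark, fed ad libitum, began. They were taken at ZT0 (lights on), ZT6, ZT12 (lights off) and ZT18, where ZT is zeitgeber time in hours. At each timepoint there were 3 pools of 2 livers. Pool A gave 2 samples with different lane labels, the second also labelled rep2, for a total of 16 samples. The pools had been merged before interactions were called, and a whole liver mixes hepatocytes with other cells. Each timepoint therefore has 1 list and every value stands without a replicate error or a test. A change in the number of cells of a type and a change in contacts per cell cannot be told apart. RNA was not measured in these lists, so the liver label could not be checked against marker genes.

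A promoter's contacts are the listed pairs with an end on its bait, the captured HindIII fragment that holds the start of the gene. All members had such a bait, and each bait held the start of no other gene. The members took part in 95 of the 247177 distinct pairs of the series, with 58 of 146262 pairs at ZT0, 64 of 154775 at ZT6, 65 of 151529 at ZT12 and 52 of 151347 at ZT18. The value of a pair is its CHiCAGO score, which sets the reads of the pair against those expected from distance and technical noise, and only pairs with a score of at least 5 are listed. Absence from a list is thus no measurement of a low score. The read depth behind the lists was not analysed here. Timepoints are those of the sample labels. The study's own summary of list sizes pairs them with the timepoints in another order, in which the list labelled ZT6 would be that of ZT18, the one labelled ZT12 that of ZT6 and the one labelled ZT18 that of ZT12.

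The members of the albumin family arose by gene duplication, and their products are plasma proteins that the liver secretes. Albumin, the product of Alb, is the most abundant protein of plasma and carries fatty acids, hormones and drugs. Alpha-fetoprotein, from Afp, is its fetal counterpart, and its gene is silenced in the liver after birth. Afamin, from Afm, binds vitamin E, and the vitamin D binding protein, from Gc, carries vitamin D metabolites and takes up actin released from damaged cells. Hepatocyte transcription factors such as HNF1, C/EBP and FOXA proteins are known to bind control regions of the family, and distant enhancers act on several of its promoters.

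In mm9 coordinates, Alb (ENSMUSG00000029368) lies at chr5:90889915-90905629 on the plus strand and was captured by a bait of 2391 bp at chr5:90887865-90890255. Afp (ENSMUSG00000054932) lies at chr5:90919740-90937933 on the plus strand, starts 29.82 kb from the start of Alb, and was captured by a bait of 10202 bp at chr5:90917478-90927679. Afm (ENSMUSG00000029369) lies at chr5:90947958-90982569 on the plus strand, starts 58.04 kb from Alb, and was captured by a bait of 5014 bp at chr5:90947169-90952182. These 3 genes stand head to tail. Gc (ENSMUSG00000035540) lies apart at chr5:89846549-89886790 on the minus strand, starts 1003 kb from Alb, and was captured by a bait of 5670 bp at chr5:89886291-89891960.

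The promoter sequences are shown because each bait was chosen for the promoter it holds, and because all of them carry the letters GTTAAT, the core bound by HNF1. They run 5′ to 3′ on the strand of the gene, come from RefSeq (GRCm38.p6) and were each found at 1 place of chromosome 5 in mm9, inside the bait: Alb at chr5:90889646-90889945, Afp at chr5:90919490-90919789, Afm at chr5:90947725-90948024 and Gc, on the minus strand, at chr5:89886874-89887173. Each has 300 bases, and capitals mark these letters or their reverse complement.
Alb: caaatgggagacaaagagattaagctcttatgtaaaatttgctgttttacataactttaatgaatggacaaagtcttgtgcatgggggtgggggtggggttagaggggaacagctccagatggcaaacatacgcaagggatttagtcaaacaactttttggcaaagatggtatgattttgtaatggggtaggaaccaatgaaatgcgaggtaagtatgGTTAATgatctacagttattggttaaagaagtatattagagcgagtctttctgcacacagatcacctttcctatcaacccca
Afp: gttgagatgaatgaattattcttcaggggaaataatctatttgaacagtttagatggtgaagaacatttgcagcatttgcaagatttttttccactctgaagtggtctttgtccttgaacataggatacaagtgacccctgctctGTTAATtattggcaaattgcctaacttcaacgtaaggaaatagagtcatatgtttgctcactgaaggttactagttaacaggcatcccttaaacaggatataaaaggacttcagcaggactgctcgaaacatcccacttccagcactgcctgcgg
Afm: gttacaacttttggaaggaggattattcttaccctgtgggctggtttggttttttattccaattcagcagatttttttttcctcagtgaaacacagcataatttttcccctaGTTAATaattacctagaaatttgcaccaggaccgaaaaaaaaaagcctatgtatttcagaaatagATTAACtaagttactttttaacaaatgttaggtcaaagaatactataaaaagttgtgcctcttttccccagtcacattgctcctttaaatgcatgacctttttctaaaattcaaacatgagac
Gc: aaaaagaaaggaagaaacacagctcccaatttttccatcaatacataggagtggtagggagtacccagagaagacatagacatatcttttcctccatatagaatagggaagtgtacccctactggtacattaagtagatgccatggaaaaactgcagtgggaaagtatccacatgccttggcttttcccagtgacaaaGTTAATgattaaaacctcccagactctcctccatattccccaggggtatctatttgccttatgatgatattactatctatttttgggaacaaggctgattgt

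GTTAAT, searched on both strands, began 32 bases upstream of the RefSeq start in Alb, 105 in Afp, 138 and 73 in Afm and 52 in Gc. It was present in all 4 member promoters and in 7.1% of the 32851 RefSeq promoters of the same length. TTNNGNAA, the letters of C/EBP and PAR bZIP proteins, were also present in all 4, and in 40.7% of all promoters. The narrower D-box TTATGNAA, each match of which is also a match of TTNNGNAA, occurred only in Alb, 223 and 204 bases upstream, and in 3.38% of all promoters. The FOXA letters TGTTTNC were in Alb and Afp (20.5% of all promoters), the NF-Y letters CCAAT in all 4 (37.4%), the TATA box TATAAA in Afp and Afm (13.6%) and the nuclear receptor letters AGGTCA in Afm (16.3%). The E-box CACGTG, which CLOCK and BMAL1 bind, and the Nr5a2 letters TCAAGGTCA matched no member window, against 7.15% and 0.423% of all promoters. Matches are letters in a window, not measured sites.

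Afp, not Alb, had the most contacts of the family. The Alb promoter had 16 contacts (ZT0), 17 (ZT6), 18 (ZT12) and 16 (ZT18), and the Afp promoter 29, 34, 28 and 27. Afm had 11, 10, 16 and 8 contacts, and Gc 2, 3, 3 and 1. The order Afp, Alb, Afm, Gc held at each timepoint, and the values of neighbors in that order overlapped only for Alb and Afm, where Afm at ZT12 equaled Alb at ZT0 and ZT18. The means over the timepoints, 29.5 for Afp, 16.75 for Alb, 11.25 for Afm and 2.25 for Gc, stood above those of 92.7%, 82.2%, 72.7% and 29.5% of the 18165 baits, whose median was 4.75. The Afp bait is also the longest of the family at 10.2 kb and the Alb bait the shortest at 2.39 kb. The part of bait length in these numbers was not tested.

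**Figure D1:**
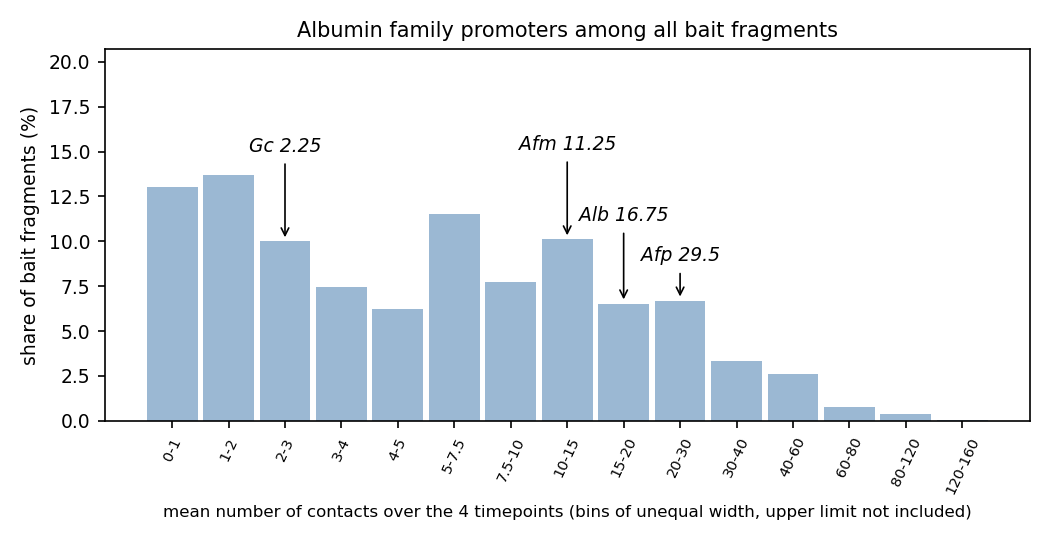
Share of the 18165 bait fragments (y axis, percent) by mean number of contacts over the 4 timepoints (x axis, bins of unequal width). Arrows mark the bins of Gc (2.25), Afm (11.25), Alb (16.75) and Afp (29.5): 3 of the members lie to the right of the median of 4.75 and Gc to the left.

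The share of contacts listed at all 4 timepoints ran from 57.1% for Alb to 16.7% for Gc. Of 21 distinct Alb contacts, 12 were listed at all 4 timepoints (57.1%, 95% Wilson interval 36.5 to 75.5), 3 at 3 timepoints, 4 at 2 and 2 at 1. Of 45 Afp contacts, 18 were listed at all 4 (40.0%, 27.0 to 54.5), 6 at 3, 7 at 2 and 14 at 1. Intervals cover counting error only, and neighboring fragments are not independent. Of 23 Afm contacts, 5 were listed at all 4 (21.7%, 9.66 to 41.9) and 12 at 1, and of 6 Gc contacts 1 was listed at all 4 and 5 at 1. Together 36 of 95 contacts (37.9%, 28.8 to 47.9) were constant, where 32.5% of all pairs of the series were, and 33 of 95 (34.7%, 25.9 to 44.7) were at 1 timepoint, where 35.2% of all pairs were. The order of Alb above Afp depended on the minimum score: at 7 or more the shares were 35.7% for Alb and 50% for Afp, and at 10 or more 20% and 35.0%. The family as a whole was close to the series in both shares, and the members' intervals overlapped each other.

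**Figure D2:**
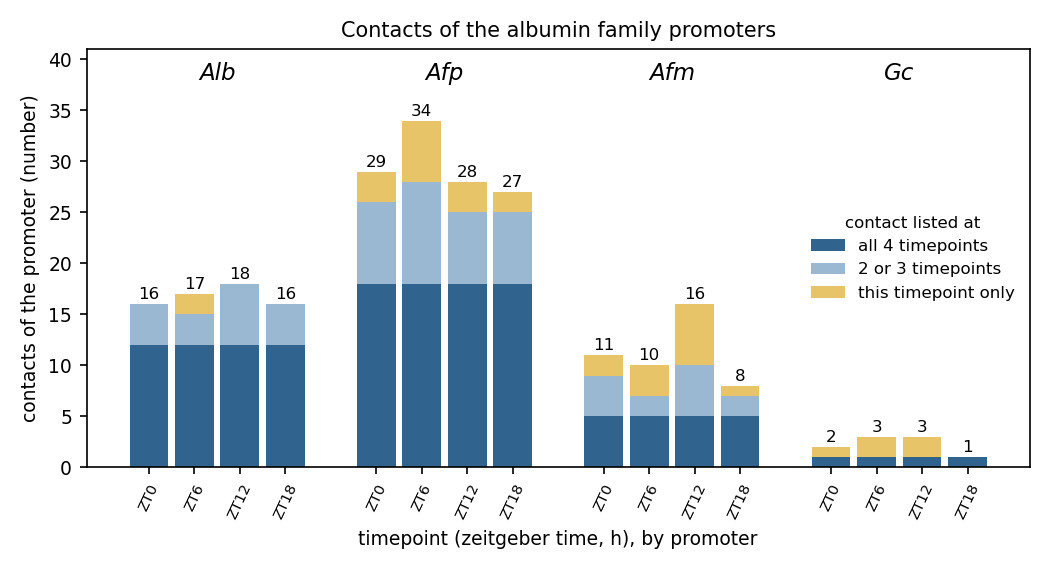
Number of contacts (y axis) of the Alb, Afp, Afm and Gc promoters at ZT0, ZT6, ZT12 and ZT18 (x axis), with the total above each bar. Dark blue marks contacts listed at all 4 timepoints (12, 18, 5 and 1), light blue those at 2 or 3, and yellow those at the bar's timepoint only, of which Afm had 6 at ZT12.

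Few member contacts were far, and many had high scores, beside all pairs of the series. More than 150 kb, measured here between fragment midpoints, was spanned by 15 of the 95 contacts (15.8%, 9.81 to 24.4), where 53.3% of all pairs within a chromosome spanned as much: 10 of Afp, 3 of Gc, 2 of Afm and 0 of Alb. The median distance was 40.2 kb for Alb, 90.2 kb for Afp, 114 kb for Afm and 285 kb for Gc, and the farthest contact lay at 106, 291, 318 and 574 kb. A score of at least 10 at some timepoint was reached by 33 contacts (34.7%, 25.9 to 44.7), where 21.5% of all pairs reached it: 20 of Afp, 10 of Alb, 2 of Afm and 1 of Gc. In the direction of transcription, the contacts lay mainly upstream for Alb (18 of 21) and Afp (30 of 45), less unevenly for Afm (14 of 23), and downstream for 4 of 6 Gc contacts. Of the 62 fragments contacted by at least 1 member, 37 (59.7%) were intergenic. The shares of upstream contacts and of intergenic fragments over the whole series were not computed, so neither can be called a trait of the family.

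The Alb promoter contacted mostly a single stretch of intergenic chromatin between the Ankrd17 gene and its own start. At chr5:90829901-90875469, from 60.0 to 14.4 kb upstream, it contacted 15 fragments with at most 300 bp between neighbors, 11 of them at all 4 timepoints. A further 3 fragments at chr5:90878762-90885569 lay from 11.2 to 4.35 kb upstream. The highest Alb score in this stretch, at chr5:90840272-90844555 and 47.5 kb upstream, was 15.55 (ZT0), 22.71 (ZT6), 18.4 (ZT12) and 16.5 (ZT18). A second maximum stood 36.4 kb upstream at chr5:90852919-90854204, with 11.68, 17.93, 22.06 and 11.19. Beyond the stretch, Alb had 3 contacts downstream, at chr5:90987979-90997429 in 5830473C10Rik, none of them at all 4 timepoints and none above 6.22. 5830473C10Rik is named Albfm1, albumin superfamily member 1, in RefSeq and follows Afm in the cluster.

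Afp reached over the Alb gene into the same stretch, with higher scores farther out. Its main run of 14 fragments at chr5:90806160-90848647 lay from 114 to 71.1 kb upstream of the Afp start, and 12 of these were contacted at all 4 timepoints. Within it, chr5:90829901-90834918 scored 22.95 (ZT0), 33.89 (ZT6), 20.77 (ZT12) and 24.81 (ZT18). The neighbor at chr5:90824483-90829900 scored 21.66, 25.93, 22.4 and 18.32. Scores of at least 10 at each timepoint were found at 7 Afp contacts, all in this run, and at 2 of Alb.

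The Afp promoter also had a distal and a downstream set of contacts. From 288 to 283 kb upstream, at chr5:90631430-90636643 beyond the 3′ end of Cox18, 3 intergenic fragments were each listed at 3 timepoints, and the first of them scored 6.16 at ZT0, 11.24 at ZT6 and 9.02 at ZT18. A further 5 fragments at chr5:90640849-90657412 overlapped Cox18, whose product serves the assembly of cytochrome c oxidase, or the end of Ankrd17. Within and just past its own gene, at chr5:90932052-90945442, Afp contacted 7 fragments, 3 of them at all 4 timepoints, with 8.39, 9.47, 10.19 and 8.2 at chr5:90932598-90934586. No Alb contact lay in either set.

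Afm, the last of the 3 tandem members, had fewer contacts than Afp on both sides of its start, and more than Alb downstream (9 against 3). Upstream it contacted 10 fragments at chr5:90812122-90844555, from 136 to 103 kb away, of which 1 was listed at all 4 timepoints. Downstream, 4 contacts were listed at all 4: a fragment near the end of its own gene, the start of 5830473C10Rik and a pair of neighboring intergenic fragments at chr5:91016490-91018842. The shorter of that pair, chr5:91018338-91018842, scored 5.56 (ZT0), 11.1 (ZT6), 12.26 (ZT12) and 9.28 (ZT18) with Afm and 6.17, 8.06, 14.68 and 11.03 with Afp. The same fragment was listed with Cox18 at ZT6 (6.5) and with the bait of Cxcl1, which encodes a neutrophil-attracting chemokine, and a 5S rRNA gene at ZT12 (5.85) and ZT18 (5.12), but at no timepoint with Alb.

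**Figure D3:**
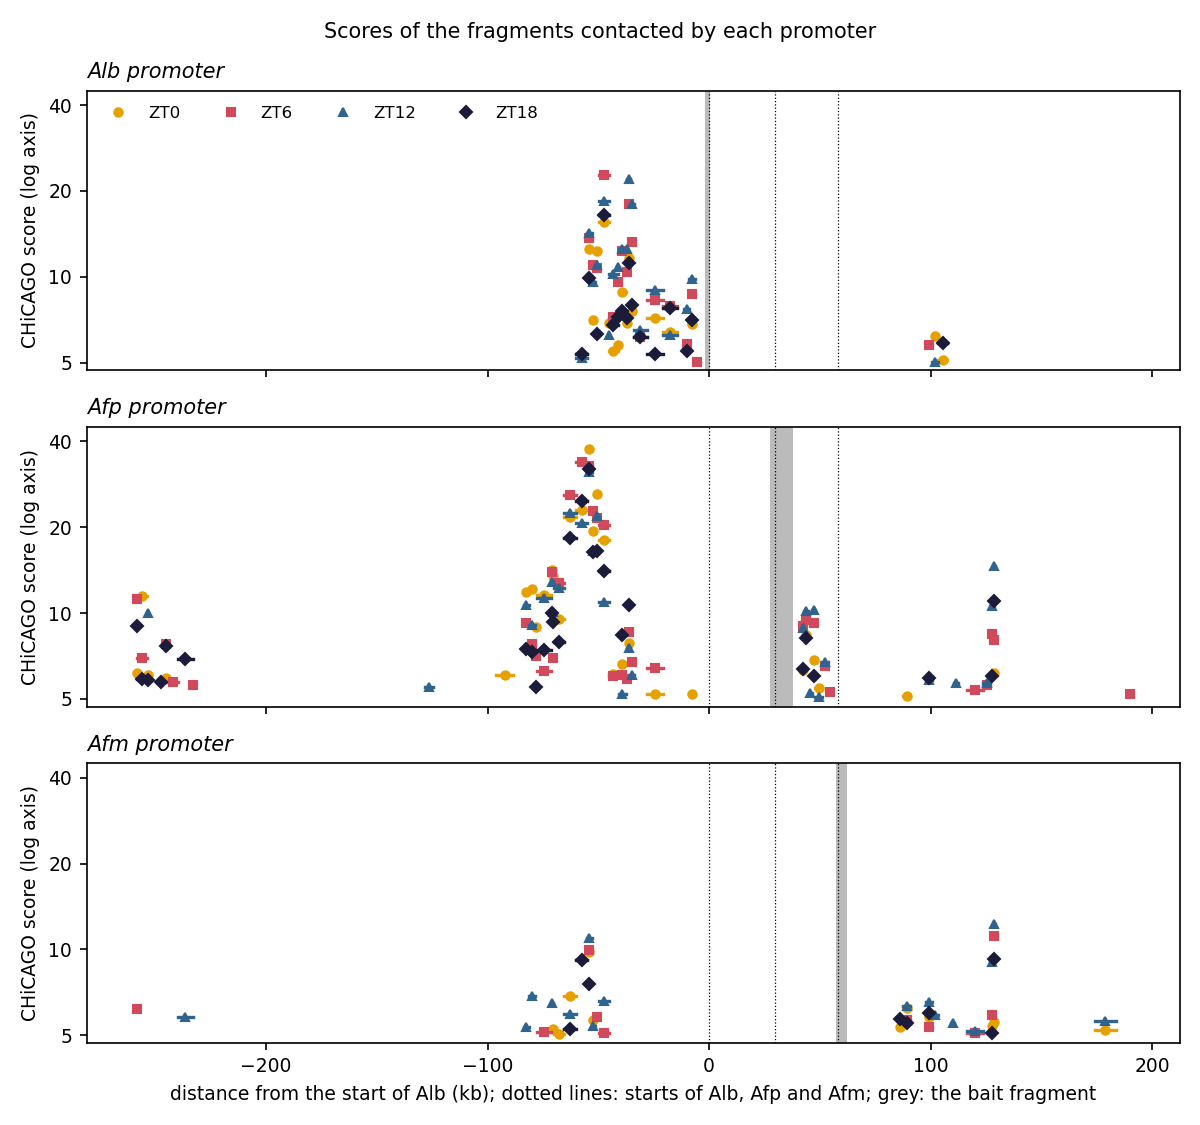
CHiCAGO score (y axis, log scale) of each fragment contacted by the Alb, Afp and Afm promoters (panels) against its distance from the start of Alb (x axis, kb). Colors and shapes give the timepoint, horizontal bars the extent of a fragment, grey bands the baits and dotted lines the gene starts. All 3 promoters have contacts around 54 kb upstream of Alb, where Afp scores reach 37.57, and Afp and Afm, but not Alb, meet again downstream near 128.7 kb.

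The contacts of the 3 tandem genes overlapped in part. Of 62 contacted fragments, 35 were contacted by 1 member, 21 by 2 and 6 by 3. Alb and Afp shared 13 fragments (61.9% of those of Alb, 28.9% of those of Afp), Alb and Afm 7 (33.3% and 30.4%), and Afp and Afm 19 (42.2% and 82.6%). Gc shared 0 with any of them. More than 1 bait of the series contacted 44 of the 62 fragments (71.0%, 58.7 to 80.8), where 45.6% of all 127340 contacted fragments had more than 1. The 27 fragments contacted by more than 1 member are among these 44 by definition, so this share partly repeats the sharing between members. How many fragments other baits at such spacing share was not computed, so the overlap cannot be called a trait of the family. By the Jaccard index of contacted fragments (shared over all contacted by either), the baits most like Alb were Afp (0.245), Afm (0.189) and 5830473C10Rik (0.107), and those most like Afm were Afp (0.388), Alb (0.189) and Cox18 (0.14). For Afp they were Afm (0.388), Alb (0.245) and Cox18 (0.145, with 10 shared fragments). The nearest to Gc were Rufy3 (0.0909), Dck (0.0556) and Grsf1 (0.0179), each through 1 shared fragment.

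A single fragment was contacted by Alb, Afp and Afm at all 4 timepoints, at chr5:90834919-90836844, an intergenic stretch of 1926 bp centered 54.0 kb upstream of Alb. Its scores with Alb were 12.49 (ZT0), 13.67 (ZT6), 14.29 (ZT12) and 9.87 (ZT18). With Afp they were 37.57, 32.84, 31.15 and 31.9, the highest of any member contact at ZT0, ZT12 and ZT18. With Afm they were 9.82, 9.91, 10.92 and 7.55. At each timepoint Afp stood above Alb and Alb above Afm. The scores of the 3 promoters did not overlap except that the lowest of Alb (9.87) fell within the range of Afm. Alb lies nearest to the fragment, but a score is already relative to the background at its distance. The part of bait length in these scores was not tested. The fragment was also listed with 5830473C10Rik at ZT0 (5.16) and with Rassf6, a gene of the RAS association domain family, at ZT18 (5.98).

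Along the shared stretch the order of Alb and Afp turned. Over the 33 cases in which both promoters contacted a shared fragment at the same timepoint, Afp scored higher in 16 and Alb in 17. Afp was higher each time at 4 neighboring fragments from 57.5 to 50.5 kb upstream of Alb, and Alb each time at 5 fragments from 37.2 to 7.69 kb upstream. At the 3 shared fragments between them, from 47.5 to 39.2 kb, each of the promoters was higher at some timepoint. Where Alb was higher each time, both promoters were listed at 1 timepoint at 37.2 and 7.69 kb. They were listed at 2 timepoints at 34.9 and 24.4 kb, and at 4 at 36.4 kb. Where Afp was higher each time, both were listed at 2 timepoints at 57.5 kb, 3 at 52.2 kb and 4 at 54.0 and 50.5 kb. A score is relative to the background fitted at its distance, so equal scores do not mean equal reads.

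The central 300 bases of 3 fragments are shown, since these carry the contacts listed at all 4 timepoints with Alb, Afp and Afm (first), with Afp and Afm but never Alb (second), and with Gc (last). They are mm9, plus strand, at chr5:90835731-90836030, chr5:91018440-91018739 and chr5:89924120-89924419. None is in capitals, because GTTAAT was absent from both strands of all 3 whole fragments, while windows of the same lengths on chromosome 5 held it in 53.0%, 18.6% and 18.5% of cases.
Shared upstream fragment: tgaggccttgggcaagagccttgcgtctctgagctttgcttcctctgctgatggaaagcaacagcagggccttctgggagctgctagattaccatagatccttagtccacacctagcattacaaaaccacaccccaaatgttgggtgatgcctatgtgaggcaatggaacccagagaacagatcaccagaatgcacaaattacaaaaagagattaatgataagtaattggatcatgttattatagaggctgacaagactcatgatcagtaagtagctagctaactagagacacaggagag
Shared downstream fragment: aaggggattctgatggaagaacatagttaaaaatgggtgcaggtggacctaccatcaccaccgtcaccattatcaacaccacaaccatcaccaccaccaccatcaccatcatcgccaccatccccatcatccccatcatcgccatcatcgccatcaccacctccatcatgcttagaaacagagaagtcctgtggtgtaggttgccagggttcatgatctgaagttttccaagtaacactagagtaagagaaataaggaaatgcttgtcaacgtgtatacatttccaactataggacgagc
Gc fragment: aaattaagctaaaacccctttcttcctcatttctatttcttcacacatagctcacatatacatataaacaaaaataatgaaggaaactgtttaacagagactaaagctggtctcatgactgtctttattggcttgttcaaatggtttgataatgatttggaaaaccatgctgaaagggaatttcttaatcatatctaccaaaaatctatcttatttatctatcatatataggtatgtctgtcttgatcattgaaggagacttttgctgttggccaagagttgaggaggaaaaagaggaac

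The downstream window holds a simple repeat, with 18 matches of CACC or CATC against 3 in the upstream and 0 in the Gc window. G and C made up 40.0%, 48.3% and 35.7% of the 3 whole fragments. How uniquely reads map to the repeat was not tested.

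Gc kept 1 constant contact, and it was not with the rest of the family. The fragment at chr5:89924020-89924520, intergenic and 37.5 kb upstream of the Gc start, scored 7.4 (ZT0), 10.11 (ZT6), 10.12 (ZT12) and 10.07 (ZT18) and was contacted by no other bait of the series. Its neighbor at chr5:89924521-89932027 was listed at ZT6 alone (5.26). The other Gc contacts were each listed at 1 timepoint: the start of Slc4a4, which encodes a sodium bicarbonate cotransporter, at ZT6 (5.7, 574 kb between midpoints), Slc4a4 introns at ZT0 (5.53) and ZT12 (6.04), and an exon of Gc at ZT12 (5.09).

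No pair of member promoters was listed as joined. Of the 6 possible pairs 0 were listed at any timepoint. The starts of Alb, Afp and Afm lie within 58.04 kb, and that of Gc lies 1003 kb from Alb. How often other baits at such distances were listed as joined was not counted. Other promoters were at the far end of 9 of the 95 contacts (9.47%, 5.06 to 17.0), where 15.4% of all pairs joined 2 baits. One of these was 5830473C10Rik (Albfm1), of the albumin superfamily but not among the members examined. Afm contacted its start at all 4 timepoints (5.77, 5.32, 6.52 and 5.98), Afp did so at ZT12 (5.81) and ZT18 (5.92), and Alb at ZT6 (5.76). Cox18 was contacted by Afp at ZT18 (6.88) and by Afm at ZT12 (5.79), and Rassf6 by Afm at ZT0 (5.22) and ZT12 (5.61). Afp had single contacts with the bait of Ankrd17 and Gm9958 at ZT0 (6.08) and with the miRNA gene AC117578.1 at ZT12 (5.51). None of these scores reached 7.

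Across the day, the constant Alb contacts mostly scored higher at ZT6 and ZT12 than at ZT0 and ZT18. Over the 12 constant Alb contacts the median score was 7.38 (ZT0), 10.6 (ZT6), 11.8 (ZT12) and 7.4 (ZT18), and at these timepoints 4, 8, 9 and 2 Alb contacts scored at least 10. The score was higher at ZT6 than at ZT0 in 11 of 12, and higher at ZT12 than at ZT18 in 11 of 12, where 53.1% and 49.8% of the constant pairs of the series were. The highest score fell at ZT12 in 9 of 12, at ZT6 in 2, at ZT0 in 1 and at ZT18 in 0, against 25.7%, 26.2%, 22.2% and 26.2% in the series. The 12 are neighbors on 1 bait and share its reads, so they count as a single observation of that bait. In the other order of the lists the higher values would belong to ZT18 and ZT6.

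The constant contacts of Afp did not show this order. These 18 had a median score of 12.0 (ZT0), 9.34 (ZT6), 11.1 (ZT12) and 9.68 (ZT18), and the highest score fell at these timepoints in 7, 6, 3 and 2 contacts. The score was higher at ZT12 than at ZT18 in 13 of 18 and at ZT6 than at ZT0 in 10 of 18. Among all listed Afp contacts, 12, 9, 16 and 9 scored at least 10 at these timepoints, most at ZT12 as for Alb. The 5 constant Afm contacts had medians of 5.77, 5.89, 9.04 and 5.98 and all scored highest at ZT12, the timepoint at which Afm also had its 16 contacts. Over all 80235 constant pairs the medians were 8.75, 8.95, 8.98 and 8.98. Whether the members differ from each other over time was not tested, since each timepoint has 1 list.

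**Figure D4:**
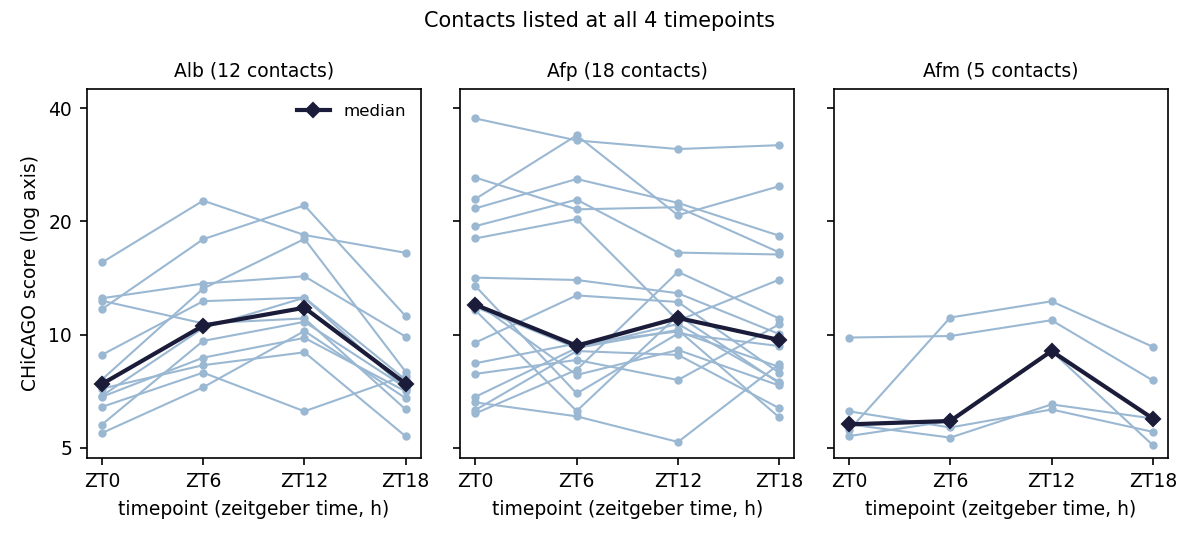
CHiCAGO score (y axis, log scale) at ZT0, ZT6, ZT12 and ZT18 (x axis) of the contacts listed at all 4 timepoints, with 1 thin line per contact and the median as a thick line, for Alb (12), Afp (18) and Afm (5). The Alb and Afm medians are highest at ZT12 (11.8 and 9.04), and that of Afp at ZT0 (12.0).

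Other genes of the liver and of the region give the scale. Of 20 genes for further secreted liver proteins 18 had a bait, with a median of 21.5 mean contacts and a median of 44.4% of contacts at all 4 timepoints, next to 4.75 and 22.7% over all baits. They ran from F2, prothrombin, with 2, 2, 3 and 2 contacts, to Ttr, transthyretin, with 50, 63, 57 and 57. Alb, Afp and Afm lay within this range, with Afp (mean 29.5) above the median of 21.5 and Alb (16.75) and Afm (11.25) below it. Gc equaled F2 in its mean of 2.25. The 17 genes for factors known to bind control regions of the family had a median of 17.75, from Nr2f2 (2, 5, 0 and 2) to Hlf (68, 85, 95 and 79), a PAR bZIP factor of the D-box. Of 37 genes that start within 1 Mb of the members, 32 lay on 28 baits with a median of 5.125 mean contacts. Slc4a4 had the most there (105, 103, 82 and 103), and Enam and Mthfd2l the fewest, with 1 contact each at 1 timepoint. Ankrd17, which borders the Alb stretch, had 36, 35, 33 and 33 contacts, of which 31 of 39 distinct ones (79.5%) were listed at all 4 timepoints.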

How the data were processed

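Promoter-CHi-C libraries of 16 liver samples were analysed from 4 lists, 1 per timepoint. The authors used HiCUP to map reads to mm9, pooled the libraries of each timepoint and ran CHiCAGO on the merged reads. The tool versions are not given in the sources used here. Each deposited list gives a CHiCAGO score per pair of fragments and holds scores of at least 5. Because a score is relative to a background fitted per timepoint, depth changes how many pairs pass, and absence is no measurement.

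Samples were grouped by the timepoint in their labels. The analysis ran in python 3.11.15 with numpy 2.4.6 and pandas 2.3.3, intervals are Wilson intervals from scipy 1.17.1, and plots were drawn with matplotlib 3.10.9. Pairs were treated as unordered, and a fragment counted as a bait if any of the lists had it as one. On chromosome 5 the HindIII digest of mm9 gave 45600 fragments, and all 7365 listed ones were identical to one of them. Gene starts, exons and names came from GENCODE vM1. Counting was tested on simulated data.

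The members and gene lists were chosen with earlier results of these data known. Named genes are the members, genes on contacted baits, genes overlapped by the strongest contacts, the 3 baits most like each member (of those with at least 5 contacts), and the extremes of each list. Ankrd17 among the neighbors, the genes listed with single fragments, and the single fragments described were picked after their values were seen. No p-values were computed. Alternatives were stricter scores, a 10 kb tolerance, equal list sizes, all transcript starts, gap distances, baits of the same timepoint, and the other order of lists.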

Additional observations from a re-analysis of the deposited data

How the results depend on the processing

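No paired analysis was possible because interactions had been called on merged pools, and for the same reason no replicate could be left out. Of 70 alternative values for 18 results, 38 stayed within 1.5 times the count or within the counting interval. With equal list sizes (146262 pairs each), all transcript starts, gap distances, baits of the same timepoint and the other order of the lists, every value that was run did so. The 8 values for all transcript starts could not move, because the transcript starts of each member fall on 1 bait. The 4 values for the other order only exchange the totals of the timepoints, which already lay within 1.5 times of each other.

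A stricter minimum leaves fewer pairs by construction. With scores of 7 or more, distinct contacts were 24 for Afp, 4 for Afm and 1 for Gc, the share at all 4 timepoints was 35.7% for Alb, below the 50% of Afp, and 100% for Gc (its 1 contact), the 4 promoters together had 26, 35, 36 and 31 contacts at ZT0, ZT6, ZT12 and ZT18, 9.3% of contacts spanned over 150 kb, 0.0% had a bait at the other end, and 9 fragments were contacted by more than 1 member. With scores of 10 or more, distinct contacts were 10 for Alb, 20 for Afp, 2 for Afm and 1 for Gc, the share at all 4 timepoints was 20% for Alb, again below Afp (35.0%), 0.0% for Afm and Gc and 27.3% for all members, contacts were 16, 19, 28 and 12 at the 4 timepoints, 9.09% spanned over 150 kb, 0.0% had a bait at the other end, and 6 fragments were contacted by more than 1 member.

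Accepting another end within 10 kb at the other timepoints raises shares by construction: 100% of Alb, 82.2% of Afp, 78.3% of Afm, 33.3% of Gc (9.68 to 70.0) and 82.1% of all member contacts were then found at all 4 timepoints, where 68.5% of all contacts of baits were, and 48 fragments were contacted by more than 1 member. In the other order of the lists Afm had its 16 contacts at ZT6 and 8 at ZT12. With 1 list per timepoint, no difference between timepoints has a replicate check, and a pair just under the minimum score cannot be told from an absent one.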
